A study of Drosophila melanogaster with 8 samples.

Results

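AGO2 binding was described at 9 genes of EGF receptor signalling, Egfr, spi, vn, rho, pnt, aop, sty, kek1 and aos, out of 18277 annotated Drosophila melanogaster genes. The genes were given by name, and every peak that overlapped one of them or lay within 1500 bp of it was taken. Argonaute 2 (AGO2) is the Argonaute protein of the Drosophila RNA interference pathway and is also found on chromatin. ChIP-seq, in which DNA crosslinked to a protein is immunoprecipitated and sequenced, was done with an AGO2 antibody in Kc167 (Kc) cells, an established female embryonic line. Triptolide-treated cells received 10 µM triptolide, an inhibitor of transcription initiation, for 60 min, and mock-treated cells served as their controls. Each treatment had 2 AGO2 immunoprecipitations and 2 inputs, 8 samples in all, and the labels give them no difference in genotype. The comparison asked where AGO2 peaks lay at these genes when initiation was blocked.

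EGF receptor signalling is a receptor tyrosine kinase pathway that acts through Ras, Raf and the MAP kinase Rolled, and it patterns many fly tissues. The ligand precursor Spitz (spi) is cleaved by the intramembrane protease Rhomboid (rho), while the neuregulin-like ligand Vein (vn) is secreted directly. In the nucleus the ETS activator Pointed (pnt) is opposed by the ETS repressor Yan (aop), and the inhibitors Argos (aos), Sprouty (sty) and Kekkon1 (kek1) restrain the signal. Several of these genes are textbook transcriptional targets of the pathway itself. Several are also long and use alternative promoters.

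A peak is an interval in which MACS2, run by the authors on each replicate against input, found more immunoprecipitated than background signal. Its summit is the position of the strongest signal, and its fold is the enrichment over local background at the summit. The triptolide lists held 5594 and 5873 peaks and the mock lists held 1055 and 1919, so a gene had more chances to catch a peak in a triptolide list. Read depth is unknown, and the list sizes cannot be told apart from depth or from the yield of the immunoprecipitation. In the whole lists 81.7% and 86.6% of triptolide summits lay on coding sequence, against 6.49% and 9.94% of mock summits. The labels do not say whether the replicates came from separate cultures, so the spread between them may be technical. A two-sided exact permutation test of 2 lists against 2 cannot give a p below 0.333, so no difference between treatments could pass 0.05 and all values are descriptions of these 4 lists.

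After Triptolide treatment AGO2 summits at the 9 genes lay mostly more than 1500 bp from any start site of the gene, in part on coding exons. In mock-treated cells most lay within 1500 bp of a start site and none on coding sequence. Introns alone held 4 and 2 triptolide summits, against 10 and 12 mock summits. Of the peaks at these genes, 3 of 9 and 7 of 11 in the triptolide lists had their summit on coding sequence of the gene, against 0 of 12 and 0 of 20 in the mock lists. Summits within 250 bp of a transcription start site (TSS) of the gene were found at 1 and 1 of the 9 genes in the triptolide lists, against 4 and 5 genes in the mock lists. Every mock promoter region called in both replicates was absent from both triptolide lists, with the exception of the downstream aop promoter. Coding summits were found at vn and kek1 in both triptolide lists and at Egfr, pnt and sty in triptolide replicate 2 alone. Promoter regions called in both mock lists and in no triptolide list lay at spi, pnt and kek1. The rho promoter had a peak in mock replicate 2 alone.

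The summit sequences below are 101 bp long and centred on the summit, and they were read 5′ to 3′ along the strand of the gene from the RefSeq copy of Release 6, which is dm6. They are shown because they set the sequence under triptolide summits beside that under mock summits at the same genes. Capitals mark matches, on either strand, to GAGAG, the core letters bound by GAGA factor, to TCAGT, the core of the initiator element, or to TATAAA, the TATA box. GAGAG reads as CTCTC on the other strand, and TCAGT reads as ACTGA.
Summits of triptolide lists are the following.
vn coding exon, triptolide replicate 2, chr3L:5842727-5842827, minus strand: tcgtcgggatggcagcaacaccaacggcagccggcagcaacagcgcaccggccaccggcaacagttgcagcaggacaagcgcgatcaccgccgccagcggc
kek1 coding exon, triptolide replicate 2, chr2L:12819196-12819296, minus strand: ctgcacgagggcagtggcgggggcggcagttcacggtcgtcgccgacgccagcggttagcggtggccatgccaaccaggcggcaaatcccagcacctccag
sty coding exon, triptolide replicate 2, chr3L:3403615-3403715, minus strand: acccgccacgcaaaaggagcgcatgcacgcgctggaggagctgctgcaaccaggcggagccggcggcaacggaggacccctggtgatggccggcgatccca
aop downstream promoter, triptolide replicate 1, chr2L:2161557-2161657, minus strand: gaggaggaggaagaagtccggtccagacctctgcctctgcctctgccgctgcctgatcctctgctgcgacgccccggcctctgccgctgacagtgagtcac
pnt intron, triptolide replicate 1, chr3R:23334527-23334627, minus strand: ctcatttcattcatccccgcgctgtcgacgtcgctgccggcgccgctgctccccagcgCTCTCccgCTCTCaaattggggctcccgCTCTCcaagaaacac
Summits of mock lists are the following.
spi 3′-most promoter, mock replicate 1, chr2L:19572619-19572719, minus strand: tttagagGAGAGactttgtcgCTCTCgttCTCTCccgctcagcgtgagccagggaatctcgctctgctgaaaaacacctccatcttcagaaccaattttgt
pnt 5′-most promoter, mock replicate 1, chr3R:23346189-23346289, minus strand: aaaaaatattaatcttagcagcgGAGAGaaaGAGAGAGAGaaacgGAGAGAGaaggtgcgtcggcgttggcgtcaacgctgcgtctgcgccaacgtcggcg
pnt upstream of its 3′-most TSS, mock replicates 1 and 2, chr3R:23295470-23295570, minus strand: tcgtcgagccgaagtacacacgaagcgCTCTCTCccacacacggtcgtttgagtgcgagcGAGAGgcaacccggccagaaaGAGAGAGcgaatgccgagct
aop intron, mock replicate 1, chr2L:2162943-2163043, minus strand: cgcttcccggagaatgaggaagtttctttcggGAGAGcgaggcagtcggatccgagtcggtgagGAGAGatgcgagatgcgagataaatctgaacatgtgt
sty upstream of its downstream TSS, mock replicate 1, chr3L:3418394-3418494, minus strand: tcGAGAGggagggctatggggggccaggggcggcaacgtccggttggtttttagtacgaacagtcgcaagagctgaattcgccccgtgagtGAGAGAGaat
kek1 promoter, mock replicate 1, chr2L:12822820-12822920, minus strand: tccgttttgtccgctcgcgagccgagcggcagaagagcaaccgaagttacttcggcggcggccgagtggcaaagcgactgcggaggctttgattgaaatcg
Windows around 3 start sites, from 100 bp upstream to 15 bp downstream, are the following.
pnt middle TSS, chr3R:23314301-23314415, minus strand: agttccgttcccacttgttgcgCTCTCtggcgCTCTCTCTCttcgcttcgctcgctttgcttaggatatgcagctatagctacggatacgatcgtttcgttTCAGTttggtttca
rho TSS, chr3L:1463711-1463825, plus strand: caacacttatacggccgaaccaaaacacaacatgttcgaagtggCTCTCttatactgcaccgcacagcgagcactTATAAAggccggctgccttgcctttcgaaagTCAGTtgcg
kek1 TSS, chr2L:12822773-12822887, minus strand: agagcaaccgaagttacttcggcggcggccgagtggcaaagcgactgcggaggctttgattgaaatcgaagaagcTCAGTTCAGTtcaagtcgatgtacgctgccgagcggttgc
The printed vn, kek1 and sty windows from triptolide lists are coding and held none of the 3 motifs. Both coding kek1 windows of triptolide replicate 1, which are not printed, held TCAGT. So did the intronic vn window of triptolide replicate 2. The printed mock windows of spi, pnt, aop and sty each held GAGAG more than once, whereas that of kek1 held no match. Of the other mock windows of spi, pnt, aop and sty, some held GAGAG and some did not. That of mock replicate 2 at the spi 3′-most promoter held none. At the downstream aop promoter GAGAG was present in mock replicate 1 and triptolide replicate 2. It was absent there in mock replicate 2 and triptolide replicate 1.

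Over all summits at the 9 genes, GAGAG was found in 2 of 9 and 2 of 11 triptolide windows, against 10 of 12 and 12 of 20 mock windows. The same letters were present in 14.9% and 12.5% of all summit windows of the triptolide lists, against 70.7% and 62.6% of those of the mock lists. The members thus followed the lists they were drawn from. At start sites GAGAG was present in 9 of the 16 distinct TSS windows of the 9 genes and in 16.0% of 23697 TSS windows of the annotation. TCAGT was found in 8 of the 16 windows, against 30.6% of all TSS windows, and the rho window alone held TATAAA, which 18.6% of all TSS windows held. At summits TCAGT occurred in 2 of 9 and 2 of 11 triptolide windows, against 0 of 12 and 2 of 20 mock windows, and TATAAA in none but the rho window of mock replicate 2. A match is a description of letters and was not tested as a binding site.

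Counted by gene, 7 and 7 of the 9 genes had a peak in the triptolide lists, against 5 and 7 in the mock lists. Over all genes 34.1% and 34.3% had a peak in the triptolide lists, against 6.53% and 11.3% in the mock lists. A peak in both triptolide lists was found at 6 of the 9, against 25.2% of all genes, and a peak in both mock lists at 5 of the 9, against 6.2% of all genes. The 9 genes are long, 5134 to 55937 bp, and of the 3539 genes at least as long as the shortest of them 46.6% had a peak in both triptolide lists and 18.4% in both mock lists. Length therefore moved with both counts, and its part in them was not tested beyond this length cut. A peak in both triptolide lists and neither mock list was found at 2 genes, Egfr and vn, against 19.6% of all genes. The opposite pattern, both mock lists and neither triptolide list, was found at 0 of the 9, against 1.49% of all genes. In all 4 lists a peak lay at 4 of the 9 genes, pnt, aop, sty and kek1, against 3.27% of all genes, although the peaks of 1 gene seldom lay at the same place.

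The number of peaks at the 9 genes was 9 and 11 in the triptolide lists and 12 and 20 in the mock lists, a mean of 10 ± 1.41 after Triptolide treatment and 16 ± 5.66 in mock (SD, n = 2 each). The ranges did not overlap, but the difference of -6 peaks was close to the SD of the mock lists. It was -10 without mock replicate 1 and -2 without mock replicate 2. Per 1000 peaks of the list, the 9 genes took 1.61 and 1.87 peaks in triptolide lists, against 11.4 and 10.4 in mock lists. On that scale the lists of a treatment lay close together and the treatments lay far apart. The scale divides by lists of 5594 and 5873 against 1055 and 1919 peaks, so it carries the difference in list size. With each list limited to its 1055 top-scoring peaks, the 9 genes held 2 and 3 triptolide peaks, against 12 and 12 mock peaks. The difference was then -9.005 per 1000 peaks, against -9.157 with all peaks, so the gap remained at equal list size. What set the list sizes was not tested, and no rate for other genes was set beside the gap.

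**Figure D1:**
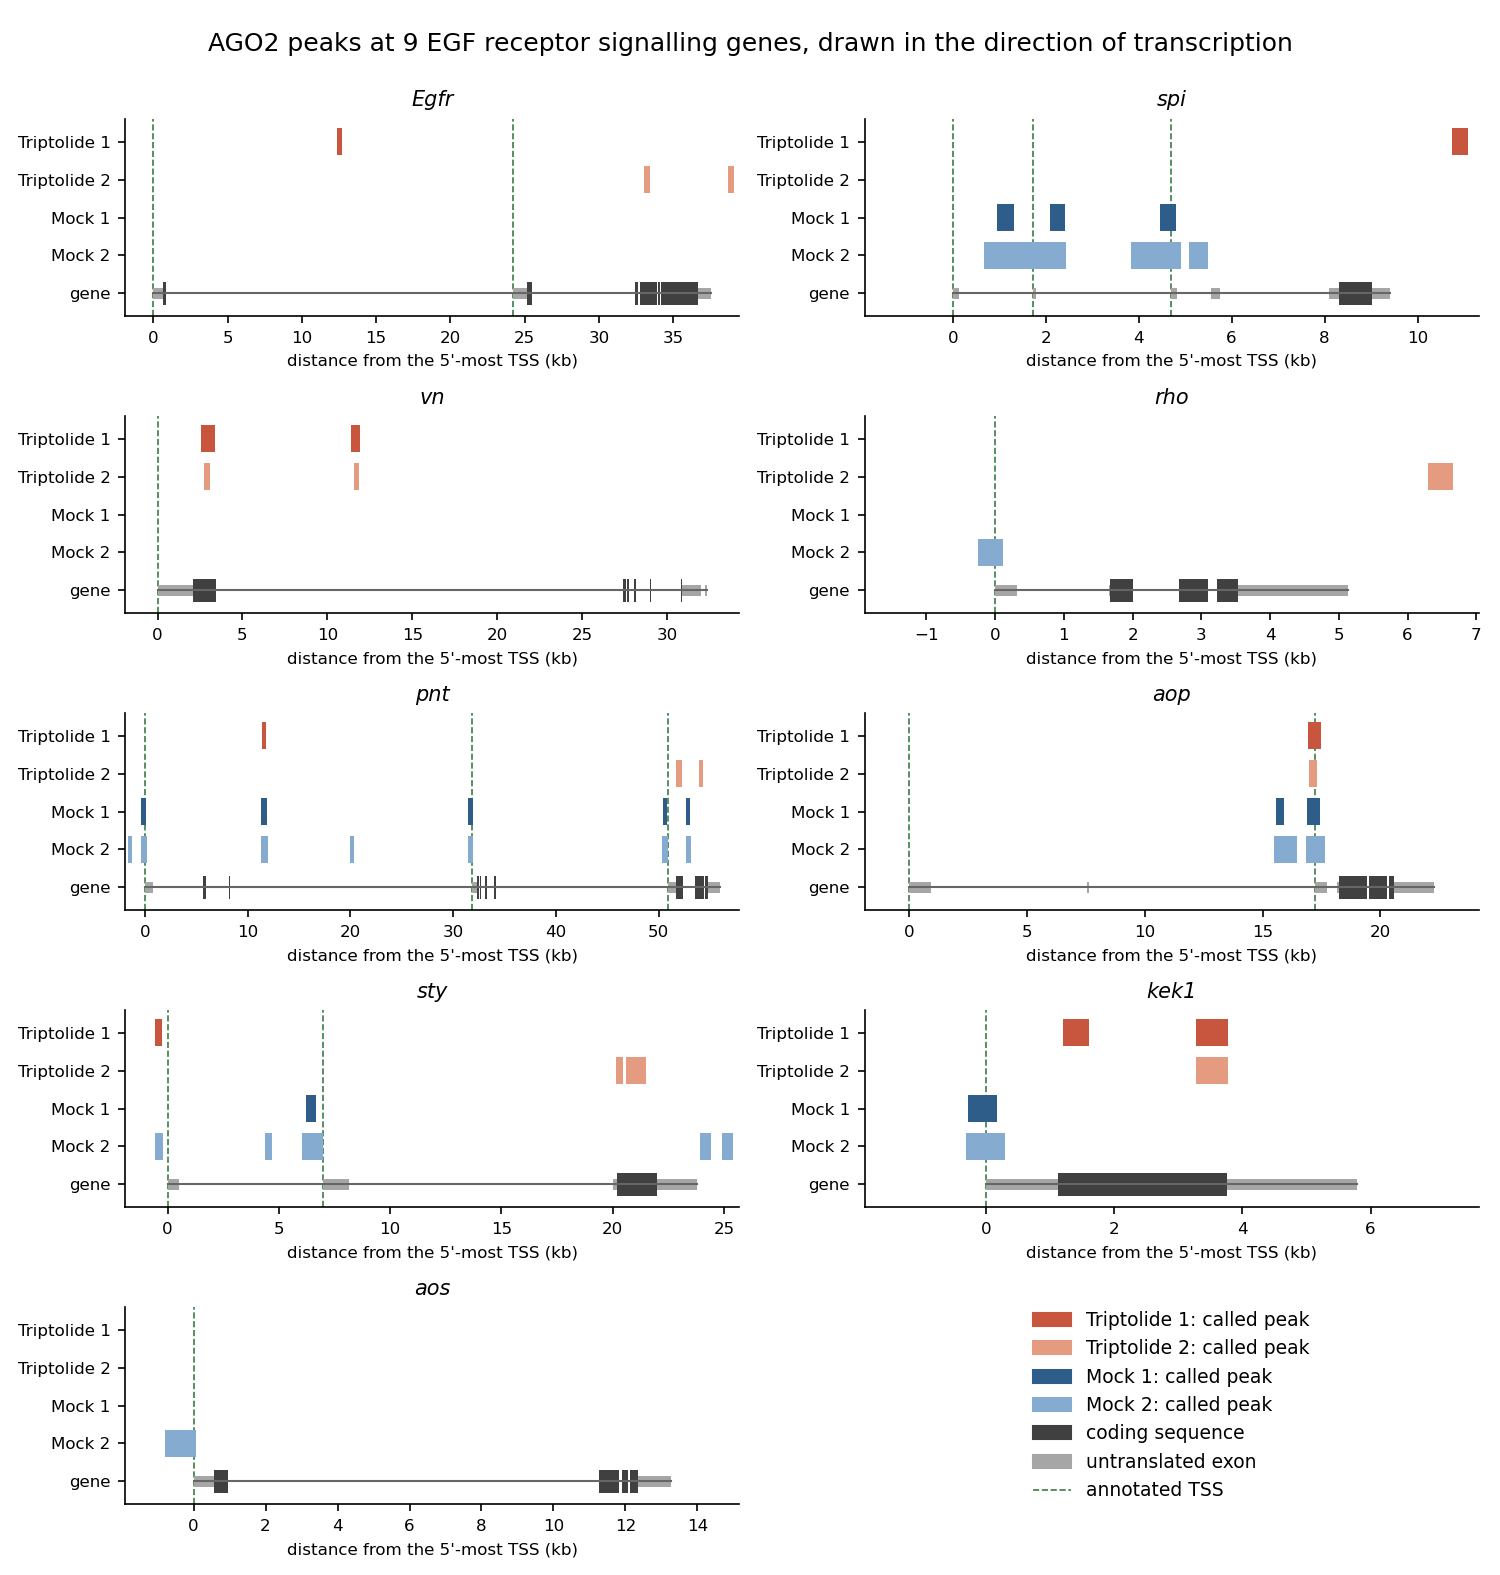
AGO2 peaks at the 9 genes, with triptolide replicates above mock replicates; the horizontal axis is the distance from the 5′-most TSS in kb along transcription, coloured bars are called peaks, dark boxes coding sequence, grey boxes untranslated exons and dashed lines annotated TSSs. Mock peaks stand at dashed lines of spi, pnt, aop and kek1, while triptolide peaks of both replicates stand at a dashed line of aop, on a coding exon of vn and of kek1 and in an intron of vn.

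Egfr (FBgn0003731) encodes the receptor and lies at chr2R:21522420-21559977 on the plus strand of dm6, with 2 TSSs. It had 1 and 2 peaks in the triptolide lists and 0 and 0 in the mock lists. The peak of triptolide replicate 1 was intronic, with its summit 12544 bp downstream of the 5′-most TSS and a fold of 4.22. Triptolide replicate 2 had a peak on a coding exon, 33136 bp from the 5′-most TSS with a fold of 3.88, and another beyond the 3′ end at 38807 bp with a fold of 3.37. The replicates thus shared no region at Egfr, and the peak beyond the 3′ end lay under the neighbouring gene twz. No summit in any list lay within 1500 bp of an Egfr TSS.

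The ligand gene spi (FBgn0005672; chr2L:19567900-19577315, minus strand, 3 TSSs) had 1 and 0 peaks in the triptolide lists and 3 and 3 in the mock lists. The lone triptolide peak had a fold of 2.61 and lay beyond the 3′ end, with its summit 248 bp from the TSS of CG13077. At the 3′-most spi TSS the mock summits lay 59 and 26 bp upstream, with folds of 3.84 and 5.50, and neither triptolide list had a peak. A further mock region between the other TSSs had summits 1141 and 1124 bp downstream of the 5′-most TSS, with folds of 4.66 and 6.91. In mock replicate 2 that region spanned 1756 bp and covered an extra mock replicate 1 peak with a summit 506 bp downstream of the middle TSS. All mock summits at spi were intronic, and none had a triptolide peak over it.

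The other ligand gene, vn (FBgn0003984; chr3L:5813338-5845664, minus strand, 1 TSS), had 2 and 2 peaks in the triptolide lists and 0 and 0 in the mock lists. In the first coding exon the summits lay 2858 and 2887 bp downstream of the TSS, with folds of 3.67 and 4.08. In the long intron the summits lay 11817 and 11717 bp downstream, with folds of 3.77 and 3.72. Both regions were called in both triptolide replicates, with summits 29 and 100 bp apart, and these were 2 of only 3 regions at the 9 genes found in both triptolide lists and neither mock list. The exonic peaks ranked at the 76.9 and 86.7 percentile of their lists by score.

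The processing protease gene rho (FBgn0004635; chr3L:1463811-1468944, plus strand, 1 TSS) had 0 and 1 peaks in the triptolide lists and 0 and 1 in the mock lists. The peak of triptolide replicate 2 was 6469 bp downstream of the TSS, past the 3′ end, with a fold of 4.38. The peak of mock replicate 2 had its summit 44 bp upstream of the TSS with a fold of 2.68, in the window with the TATA box printed above. Both peaks also overlap the annotated gene Ptp61F, and neither was found in the other replicate.

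The activator gene pnt (FBgn0003118; chr3R:23290231-23346167, minus strand, 3 TSSs) had the most mock peaks of the 9 genes, with 1 and 2 peaks in the triptolide lists and 5 and 7 in the mock lists. At the 5′-most TSS, mock summits lay 72 and 77 bp upstream with folds of 5.73 and 5.35. At the middle TSS, mock summits lay 125 and 163 bp upstream with folds of 6.83 and 6.19. At the 3′-most TSS, both mock summits lay 282 bp upstream at the same base, with folds of 3.37 and 10.0. Neither triptolide list had a peak overlapping any of these 3 regions, of which the last has its summits outside the 250 bp window that counts as promoter here.

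An intronic region of pnt between its 5′-most and middle TSSs was present in triptolide replicate 1 and in both mock lists. Its folds were 3.38 in triptolide replicate 1, with no peak in triptolide replicate 2, against 5.21 and 11.0 in the mock lists, with summits 11590 bp from the TSS in triptolide replicate 1 and 11583 and 11553 bp in mock. It ranked at the 96.2 percentile by score in triptolide replicate 1, against 85.0 and 97.1 in the mock lists, and its summits lay 774 to 811 bp from the TSS of the noncoding gene lncRNA:CR46090. The same window carries GAGAG at 3 places, so this triptolide summit resembled the mock summits in place and in letters. Both pnt peaks of triptolide replicate 2 were coding, 1028 and 3182 bp downstream of the 3′-most TSS, with folds of 4.30 and 2.33. Mock replicates shared 1 more intronic region, with summits 1944 and 1999 bp downstream of that TSS and folds of 2.43 and 6.83. The mock replicate 1 peak there ranked at the 0.284 percentile of its list, just inside the threshold of the caller.

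The repressor gene aop (FBgn0000097; chr2L:2156484-2178754, minus strand, 2 TSSs) held the sole region at the 9 genes found in all 4 lists. At its downstream TSS the summits lay 80 and 17 bp upstream in the triptolide lists and 52 and 130 bp upstream in the mock lists. The folds were 3.78 and 4.16 in triptolide lists, against 9.19 and 4.76 in mock lists, so the groups did not overlap but the mock lists differed widely between themselves. Further upstream in the intron, both mock lists had another peak, with summits 1466 and 1483 bp upstream of the same TSS and folds of 4.83 and 6.16. No triptolide peak covered it. The 5′-most aop TSS had no summit within 1500 bp in any list.

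The inhibitor gene sty (FBgn0014388; chr3L:3401153-3424935, minus strand, 2 TSSs) had 1 and 2 peaks in the triptolide lists and 1 and 5 in the mock lists. Upstream of its downstream TSS, both mock lists had a peak, with summits at 483 and 583 bp and folds of 4.18 and 4.34, and neither triptolide list did. Upstream of the 5′-most TSS, triptolide replicate 1 had a summit at 364 bp with a fold of 2.39, against a summit at 349 bp with a fold of 2.97 in mock replicate 2. Triptolide replicate 2 instead had 2 peaks on the sty coding exon, with folds of 2.90 and 2.54. Mock replicate 2 further had an intronic peak and a pair of peaks beyond the 3′ end that mock replicate 1 lacked.

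At kek1 (FBgn0015399; chr2L:12817000-12822787, minus strand, 1 TSS) the treatments differed most plainly in place. The gene had 2 and 1 peaks in the triptolide lists and 1 and 1 in the mock lists. In both triptolide lists a coding region was called, with summits 3498 and 3541 bp downstream of the TSS and folds of 2.45 and 2.37, and triptolide replicate 1 had another coding peak at 1306 bp. In both mock lists the only peak covered the TSS, with summits 83 and 43 bp upstream and folds of 6.57 and 7.15. The coding region ranked at the 17.5 and 12.4 percentile of the triptolide lists, whereas the promoter ranked at the 69.9 and 80.7 percentile of the mock lists.

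Around aos (FBgn0004569; chr3L:16470386-16483650, minus strand, 1 TSS), which encodes a secreted antagonist that binds Spitz, neither triptolide list had a peak. Mock replicate 1 had none either, and mock replicate 2 had 1 peak with its summit 520 bp upstream of the TSS and a fold of 4.20. That peak also covered part of the neighbouring gene CG33158.

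**Figure D2:**
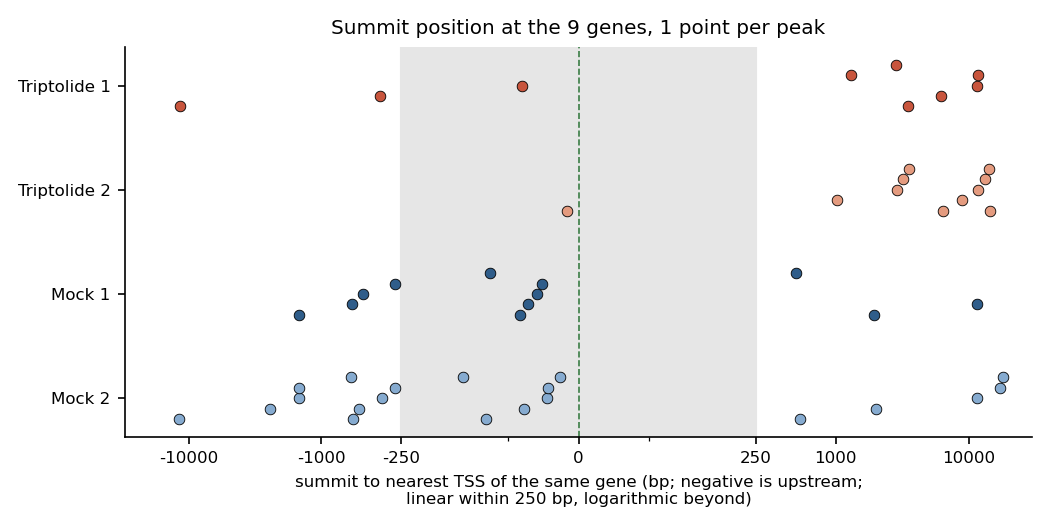
Distance of each summit from the nearest TSS of its own gene in bp, 1 point per peak and 1 row per list, with triptolide lists above mock lists; negative is upstream, and the axis is linear within 250 bp (shaded) and logarithmic beyond. The shaded strip holds 1 and 1 triptolide summits against 5 and 6 mock summits.

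Of the 16 distinct TSSs, 5 had a summit within 250 bp in both mock lists, and of these only that of aop had one in a triptolide list. A summit lay within 250 bp of 1 and 1 TSSs in the triptolide lists, against 5 and 6 in the mock lists, and within 1500 bp of 3 and 2 TSSs against 9 and 12. The 5 TSSs were the 3′-most of spi, the first and middle of pnt, the downstream of aop and that of kek1. Counted by gene, a summit within 250 bp of a TSS in both triptolide lists was found at 1 of the 9, aop, against 0.848% of all genes. In both mock lists it was found at 4 of the 9, spi, pnt, aop and kek1, against 2.53% of all genes and 9.55% of genes at least as long as the shortest of the 9.

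The median distance from summit to nearest own TSS was 3498 and 6469 bp in triptolide lists, against 382.5 and 560 bp in mock lists. The 2 ranges did not overlap, and the difference of the means, 4512 bp, was larger than the SDs of 2101 bp after Triptolide treatment and 126 bp in mock. Summits lay more than 1500 bp from any own TSS for 6 of 9 and 9 of 11 triptolide peaks, against 2 of 12 and 6 of 20 mock peaks. Mock summits near promoters were mostly on the upstream side. Upstream of the nearest TSS lay 3 of 9 and 1 of 11 triptolide summits, against 9 of 12 and 15 of 20 mock summits. The same measures over all peaks of the lists are not given here. Whether the shift in distance is particular to the 9 genes was therefore not tested.

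On coding sequence of any gene lay 44.4% and 72.7% of the triptolide summits at the 9 genes, against 0 and 0 of the mock summits. Coding sequence makes up 11.8% of the 232 kb that the 9 genes and their flanks span. The triptolide shares were below those of the whole triptolide lists given above. In introns alone lay 4 and 2 triptolide summits, against 10 and 12 mock summits, and outside the gene lay 2 and 2 triptolide summits, against 2 and 8 mock summits.

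The sequence under the peaks differed in the same manner. The median GC content of peaks at the 9 genes was 56.2% and 60.0% in the triptolide lists, against 49.9% and 47.5% in the mock lists. The difference of 9.37 percentage points exceeded the SD of 2.73 after Triptolide treatment and of 1.70 in mock. The medians of the whole lists were 58.9% and 59.8% for triptolide, against 51.2% and 48.9% for mock, so the 9 genes followed their lists. All 9 and 11 triptolide peaks had at least 50% GC, against 6 of 12 and 7 of 20 mock peaks. The coding sequence of the 9 genes has 54.1% to 61.9% GC and the whole genes 40.4% to 45.9%, so position on coding sequence and GC content moved together, and the part of either was not tested.

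**Figure D3:**
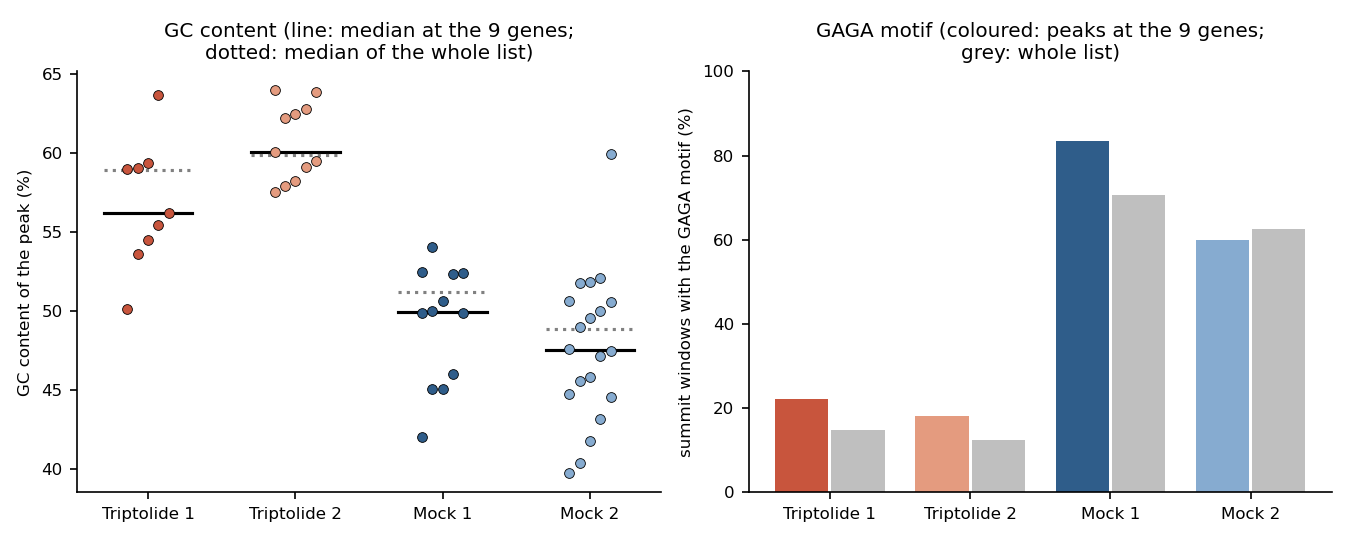
Left, GC content of each peak at the 9 genes in percent by list, triptolide lists left of mock lists, with the median at the 9 genes (solid line) and of the whole list (dotted line); right, percent of 101 bp summit windows that hold GAGAG at the 9 genes (coloured) and in the whole list (grey). Every triptolide point is above 50%, and the coloured bars are low in the triptolide lists and high in the mock lists.

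Agreement between replicates differed with the list and the measure. Of the peaks at the 9 genes, 44.4% and 36.4% in triptolide replicates 1 and 2 overlapped a peak of the other triptolide replicate, against 100% and 55.0% in mock replicates 1 and 2. The mean shares were 40.4% ± 5.71 after Triptolide treatment and 77.5% ± 31.8 in mock (SD, n = 2 each), and the mock spread was nearly as large as the difference of the means. In the whole lists the shares were 56.7% and 53.9% for triptolide, against 90.0% and 48.4% for mock. With −log10 q of at least 5, the shares at the 9 genes were 50% and 50% in triptolide lists, against 100% and 50% in mock lists. Counted by gene, 6 of 7 and 6 of 7 genes with a peak in a triptolide list had one in the other, against 5 of 5 and 5 of 7 in the mock lists. Mock replicate 1 was the shorter list, and all of its 12 peaks recurred in mock replicate 2. Where both replicates had a region, summits lay a median of 53 bp apart in triptolide (29 to 100 bp, 4 regions), against 33 bp in mock (0 to 100 bp, 11 regions).

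After overlapping peaks were merged, the 9 genes held 33 regions. In both triptolide lists and neither mock list were 3 regions, a pair at vn and 1 at kek1. That count became 10 without triptolide replicate 1 and 6 without triptolide replicate 2. In both mock lists and neither triptolide list were 9 regions, at spi, pnt, aop, sty and kek1, which became 17 without mock replicate 1. Only the aop promoter was in all 4 lists, and without triptolide replicate 2 the pnt intron joined it. A further 10 regions were in 1 triptolide list alone and 8 in 1 mock list alone. The same counts of regions over all genes are not given here. Whether these counts are particular to the 9 genes was therefore not tested.

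**Figure D4:**
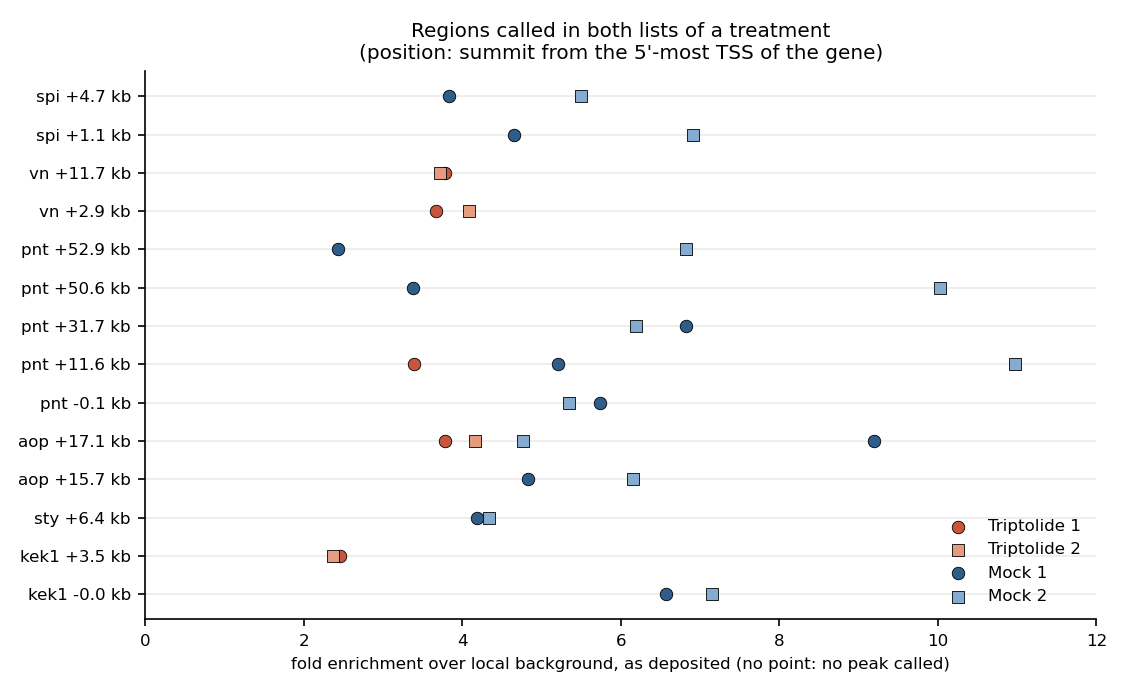
Deposited fold of each region at the 9 genes that was called in both lists of a treatment, by replicate; rows give the gene and the position of the summit in kb from the 5′-most TSS, and no point means no peak. Triptolide points lie between 2.37 and 4.16, and mock points between 2.43 and 11.0.

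The strength of triptolide peaks at these genes was low and even. Folds ranged 2.39 to 4.22 and 2.33 to 4.38 in the triptolide lists, against 2.43 to 9.19 and 2.41 to 11.0 in the mock lists. The medians were 3.38 and 3.72 in triptolide lists, against 4.74 and 4.93 in mock lists, close to the medians of the whole lists, 3.40 and 3.46 for triptolide and 5.00 and 4.73 for mock. When each list was limited to its 1055 top-scoring peaks, the size of the smallest list, 2 and 3 of the 9 genes kept a peak in triptolide lists, against 5 and 5 in mock lists. The direction of the gene count thus turned, since with all peaks the triptolide lists had 1 gene more on average. The shares of all genes at this setting are not given here, so whether the turn is particular to the 9 genes was not tested.

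The other genes of the pathway, a list of 30 ligand, transduction, inhibitor and nuclear genes, gave 41 and 40 peaks in the triptolide lists, against 17 and 22 in the mock lists. A peak in both triptolide lists was found at 16 of the 30 and in both mock lists at 7, against 25.2% and 6.2% of all genes and 46.6% and 18.4% of genes at least as long as rho, the shortest of the 9. In both triptolide lists and neither mock list were 9 of the 30, Krn, rho-4, rho-6, Sos, dos, cnk, Cbl, PTP-ER and kek2, each with 1 to 4 peaks per triptolide list, against 19.6% of all genes. The peaks of Krn and rho-6 lay past the 3′ end, under the neighbouring genes Ndfip and CG17211. Those of rho-4 were intronic and also overlapped CG2533. Some peaks of dos, cnk and PTP-ER likewise overlapped neighbouring genes. The opposite pattern was found at 0 of the 30, against 1.49% of all genes. In all 4 lists a peak lay at 5 of the 30, csw, kek5, cic, gro and Ets21C, against 3.27% of all genes. Summits on the coding sequence of the gene numbered 22 and 23 in triptolide lists, against 1 and 1 in mock lists. Median GC content was 59.3% and 59.9% in triptolide lists, against 51.6% and 48.2% in mock lists, values that lay near those of the 9 genes.

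Raf, the kinase downstream of Ras, had 1 and 0 peaks in the triptolide lists against 8 and 7 in the mock lists, all intronic. The Raf peak of triptolide replicate 1 had a fold of 3.88 and coincided with mock peaks of 5.70 and 9.32 fold. Ets21C, another ETS factor gene, had 5 and 6 triptolide peaks against 3 and 4 mock peaks, and at its promoter folds were 4.07 and 2.80 in triptolide lists, against 5.50 and 13.3 in mock lists. Along with aop this promoter had a summit within 250 bp of a TSS in all 4 lists. At gro, a corepressor gene, a promoter peak was present in triptolide replicate 1 at 3.08 fold, absent in triptolide replicate 2, and present in both mock lists at 5.16 and 8.89 fold. At csw, which encodes the phosphatase Corkscrew, a summit near a TSS was seen in mock lists alone, 104 and 112 bp downstream, while the triptolide peaks were on coding sequence. The adaptor gene drk had a summit within 250 bp of a TSS in triptolide replicate 1 and in both mock lists, but its neighbour mars has a TSS in the same region. A summit near a TSS in both triptolide lists without a mock peak was seen at kek2, 124 and 57 bp downstream with folds of 4.18 and 3.45.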

How the data were processed

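AGO2 ChIP-seq was done in Kc cells after triptolide or mock treatment. Per the submitters' processing notes, the authors used cutadapt 1.10 for trimming, Bowtie2 for alignment to dm6, Picard 2.11.0 to remove duplicates and MACS2 2.1.1.20160309 to call peaks in each replicate against input. The study's methods name later releases of cutadapt and Picard, and a mapping quality of at least 20. Each deposited list gives peak and summit positions, a score (10 × −log10 q, truncated), the fold, a ratio over local background, and −log10 p-values and q-values. All are the authors' values and served to describe or filter peaks. Depth is unknown. The 4 inputs were not analysed by themselves, and the authors' pooled call was not used here.

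Genes, coding sequence and TSSs came from Ensembl BDGP6.54, release 115. Peaks overlapping a gene or within 1500 bp of it were assigned to it, summits within 250 bp of a TSS counted as promoter summits, and peaks sharing 1 bp were merged into regions. Percentiles rank a peak by score within its list. Motifs were exact letter matches on both strands. Python 3.11.15, numpy 2.4.6 and scipy 1.17.1 were used, and the scripts were tested on simulated data. List values were compared by two-sided exact permutation tests. Alternatives were the distance to the gene (0 or 500 bp), −log10 q of at least 5, an equal number of peaks per list, the overlap that counts as shared, the summit window (500 bp), coding TSSs, leaving out each replicate and a replicate block. The 9 genes and the pathway list were chosen with earlier results of these data known. All 9 were described, and other pathway genes were named where both lists of a treatment held a peak or where 5 or fewer fell in a count. Of the 16 pathway genes with peaks in both triptolide lists, S, edl, kek5 and cic are given in the closing section.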

Additional observations from a re-analysis of the deposited data

How the results depend on the processing

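Of 89 alternative values, 77 kept the direction or, for counts of regions, stayed within 1.5 times. Among them the difference in peaks at the 9 genes (reported -6) was -11.5 with −log10 q of at least 5 and -9.5 with equal numbers, and ranged -10 to -2 leaving out each replicate. The difference in genes with a peak (triptolide minus mock, reported 1) turned to -0.5 with peaks overlapping the gene only, to -2 with −log10 q of at least 5 and to -2.5 with equal numbers of peaks per list, was 0 within 500 bp, and ranged 0 to 2 leaving out each replicate, with 0 without mock replicate 1. The cause was not tested. Regions in both triptolide lists and neither mock list (3) numbered 1 with −log10 q of at least 5 and 0 with equal numbers, and ranged 3 to 10 leaving out each replicate. Those in both mock lists and neither triptolide list (9) ranged 9 to 17, by construction since 1 list then stands for the treatment. Regions in all 4 lists (1) numbered 0 with equal numbers and ranged 1 to 2. Promoter summits, summit distance, GC content and peaks per 1000 kept their direction in every alternative run, the distance difference being 2904 bp within 500 bp of the gene, and the difference in shared peaks (reported -37.1 percentage points) was -25 with −log10 q of at least 5 and -95.8 with equal numbers. With equal numbers only 2 and 3 triptolide peaks were left at the 9 genes, against 12 and 12 mock peaks, and mock replicate 1 was kept whole. The difference of -95.8 thus rests on few triptolide peaks. Replicate deviations did not correlate (r = -0.00875 across 8542 genes, which are not independent). That value cannot show whether replicates of the same number were handled together, which the labels do not say. With the replicate block the difference in peaks was -6, with a smallest possible sign-flip p of 0.5. The block could change no difference, since the mean of the paired differences equals the difference of the means. Its values are nonetheless counted among the 77. The share of peaks found in the other replicate could not be computed with 1 replicate left out. Peak lists limit every statement to what passed the caller, and a region absent from a list may lie just below its threshold.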

Other observations

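At cic, which encodes the repressor Capicua, 3 and 4 triptolide peaks all had coding summits, against 1 and 1 mock peaks with folds of 4.53 and 6.07. The mock summits lay 680 and 679 bp downstream of a TSS, in a 5′ untranslated exon or an intron depending on the transcript. At kek5, a relative of kek1, the triptolide lists had 2 and 3 peaks at the 3′ end of the gene, 111451 to 115567 bp from the TSS, against 1 and 1 intronic mock peaks 8098 and 8136 bp from it. At edl, a modulator of ETS factors, both triptolide lists had a coding peak, with folds of 3.48 and 2.59, against a promoter peak 2 bp upstream of the TSS with a fold of 7.46 in mock replicate 2 alone. S, which encodes the Spitz trafficking factor Star, had 2 and 4 triptolide peaks, against 1 and 0 mock peaks, and some of these also overlapped the gene ast. No peak lay at ru, stet, Nf1 or ed in any list.

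Among the 9 genes pnt had the highest mean score percentile over the mock lists. Its best peak ranked at the 96.2 and 92.9 percentile in triptolide lists, against 90.7 and 97.1 in mock lists. Among 13959 other protein-coding genes the nearest by Euclidean distance of these 4 percentiles was eIF4A, a translation initiation helicase, at 97.6 and 94.3 in triptolide lists, against 92.7 and 99.2 in mock lists, a distance of 3.52. The adjoining genes CG3894 and Eps-15 came next with the same values, 99.3 and 94.3 in triptolide lists, against 93.8 and 98.3 in mock lists, a distance of 4.79. The best peak of a gene need not be the same region in each list, and the likeness is over 4 lists only.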
